A study of Mus musculus with 2 samples.

Results

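Polycomb repressive complexes are protein assemblies that keep genes silent through histone modification, and their transcripts were compared here between mouse neural stem cells treated with an siRNA against Chd4 and cells treated with a scrambled siRNA. The group was defined by name and not by a cut on measured values, but with earlier results of these data known. The gene expression table held 17359 genes in all. The group was its 10 rows with the symbols Ezh1, Ezh2, Eed, Suz12, Jarid2, Rnf2, Ring1, Bmi1, Cbx2 and Cbx7. All 10 were present once and had a mean level of at least 1 TPM (transcript abundance per length, scaled so that it sums to the same total in every library), so none was lost to the filter that kept 12882 genes.

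The libraries came from neural stem cells, the self-renewing cells of the nervous system that give rise to neurons and glia. The siSCR group (genotype label control, 1 library) received scrambled siRNA, and the siChd4 group (genotype label Chd4 knockdown, 1 library) received siRNA against Chd4, the motor protein of the chromatin remodeller NuRD. The series title concerns the nucleoporin Seh1 in neurogenesis. No source used here states the strain, age or origin of the cells, the amount of siRNA, or how long after transfection RNA was taken. With 1 library per group no test between conditions was possible, so each difference below is one between 2 libraries, and how much separate cultures vary is unknown. Where 2 values stand side by side without labels, that of siChd4 comes first. The intervals given are exact 95% intervals that cover counting error only, and reads that carry no molecular identifier may be copies of each other.

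In all 19816811 (siSCR) and 20072009 (siChd4) estimated counts were in the table, and the 10 genes had between 141 and 3254 of them in siSCR and between 162 and 2944 in siChd4. Chd4 itself was at 203 TPM (siChd4) and 250 TPM (siSCR), a fold of 0.815 (0.795 to 0.836), so the targeted transcript was lower by less than 1.5-fold. By a limit of 1.2-fold, which Chd4 passed, 22.3% of all genes tested were lower. All 10 neural stem cell and radial glia markers of the list used were present, summing to 13682 TPM (siChd4) and 11608 TPM (siSCR), most of it Fabp7 and Vim. They were split in direction, with 6 above 0 and 4 below (Notch1, Slc1a3, Pax6 and Msi1) on the log2 scale. Sox2 was at 336 and 314 TPM, and Slc1a3 at 878 and 1254 TPM.

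Polycomb repressive complex 2 (PRC2) methylates histone H3 on lysine 27, a mark of silent chromatin. Its catalytic subunit is either Ezh2 or its paralog Ezh1, and it works only when held by Eed and Suz12. Polycomb repressive complex 1 (PRC1) attaches ubiquitin to histone H2A through Rnf2 (RING1B) or Ring1 (RING1A), paired with a PCGF protein such as Bmi1. In canonical PRC1 a CBX protein such as Cbx2 or Cbx7 reads the methyl mark laid down by PRC2. In neural stem cells these complexes are known for holding back genes of other lineages and for sustaining self-renewal, in which Bmi1 represses the Cdkn2a locus.

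None of the 10 genes differed by 1.5-fold or more on the scale of TPM plus 1, and neither did any by 2-fold. Over all genes tested, 11.2% passed 1.5-fold in either direction (8.92% of genes with a mean of at least 5 TPM) and 2.89% passed 2-fold. The counting interval of the fold lay below 1 for 5 of the 10 (Ezh2, Eed, Suz12, Bmi1 and Cbx2), above 1 for 2 (Ring1 and Cbx7), and included 1 for 3 (Ezh1, Jarid2 and Rnf2). That interval lay below 1 for 34.1% and above 1 for 25.1% of all genes tested. On FPKM, the authors' other normalized unit, the corresponding shares of all genes were 27.8% and 31.0%, and 4 and 2 of the 10. The log2 ratios of siChd4 over siSCR (TPM plus 1) ran from -0.35 for Suz12 to 0.35 for Cbx7. Their median was -0.16, against -0.04 over all genes tested, and 6 of the 10 lay within the middle 50% of genes, between -0.24 and 0.17. At a smaller limit of 1.2-fold, Suz12 was lower and Cbx7 higher, where 22.3% of all genes tested were lower and 18.1% higher.

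**Figure D1:**
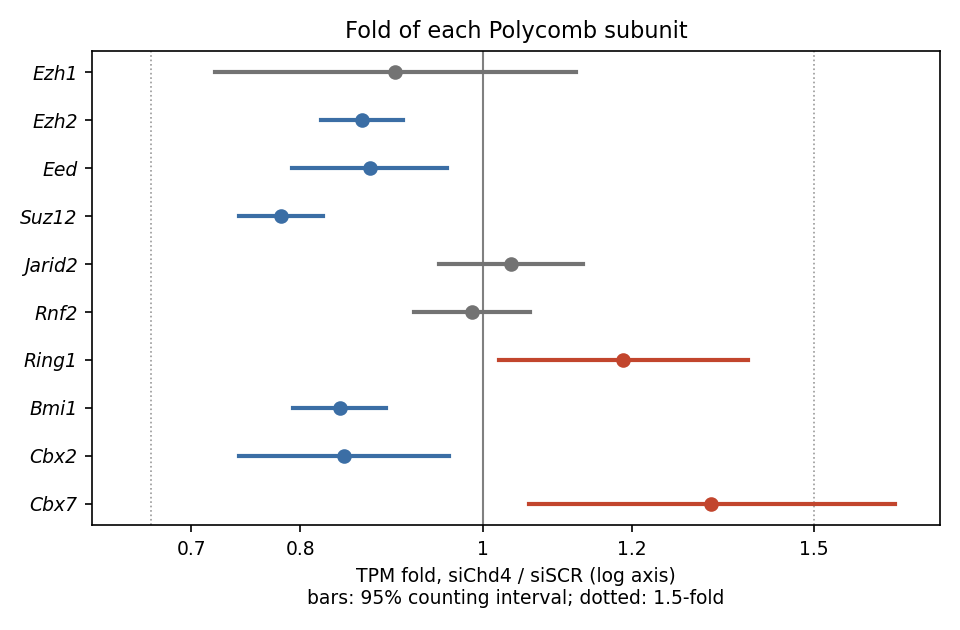
TPM fold of siChd4 over siSCR for each of the 10 genes (points, log axis) with its 95% counting interval (bars), 1 library per group. Blue intervals lie below 1, red above 1 and grey include 1, and every point lies between the dotted 1.5-fold lines.

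The level of these transcripts spanned a wide range. Ezh2 was the most abundant and Ezh1 the least, 30.6 times apart in siSCR and 29.4 times apart in siChd4. In siSCR the order from high to low was Ezh2, Suz12, Bmi1, Rnf2, Eed, Jarid2, Ring1, Cbx2, Cbx7 and Ezh1. In siChd4 Bmi1 stood above Suz12 and Ring1 above Jarid2, and the order was otherwise the same. The mean level of Ezh2 was above that of 89.96% of the genes tested and the mean level of Ezh1 above that of 15.4%.

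**Figure D2:**
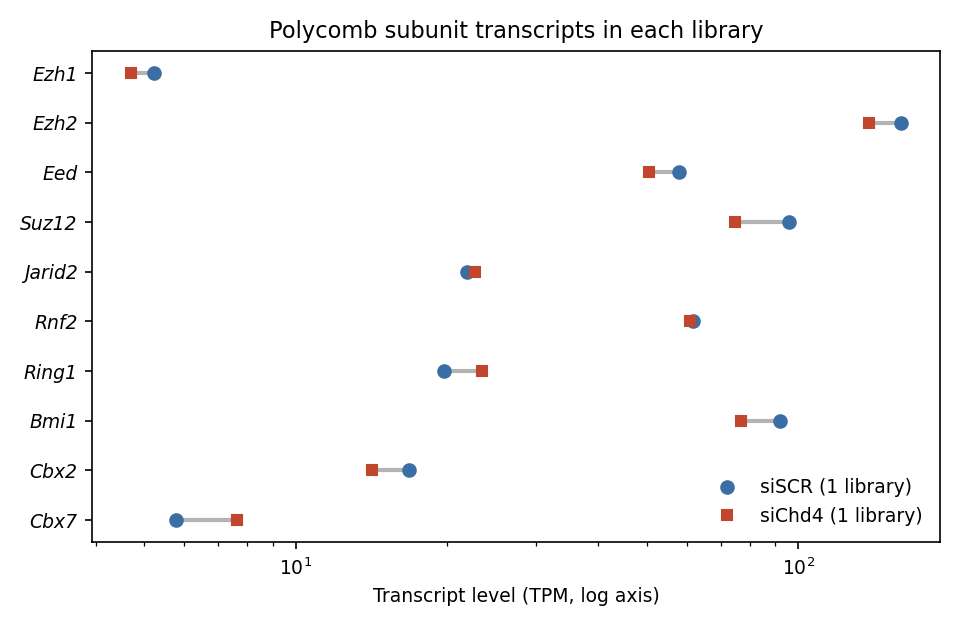
Level of each gene in TPM (log axis) in the siSCR library (blue circles) and the siChd4 library (red squares), 1 library each. The levels span from Ezh2 to Ezh1, with Ezh2 at 160 (siSCR) and 138 TPM (siChd4) and Ezh1 at 5.23 (siSCR) and 4.70 TPM (siChd4).

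The catalytic subunits of PRC2 were both lower in the siChd4 library, Ezh1 by an amount within counting error. Ezh2 (Entrez 14056), the methyltransferase of dividing cells, was at 138 TPM (siChd4) and 160 TPM (siSCR), from 2944 and 3247 estimated counts. Its fold was 0.863 (0.821 to 0.907) and its log2 ratio -0.21, and 27.8% of genes tested had a lower ratio. Ezh1 (Entrez 14055), the paralog that is more prominent in non-dividing cells, was at 4.70 TPM (siChd4) and 5.23 TPM (siSCR), a fold of 0.899 (0.720 to 1.12). Ezh2 thus made up 96.7% of the EZH transcripts in siChd4 (96.2% to 97.2%) and 96.8% in siSCR (96.3% to 97.3%). The Ezh2 to Ezh1 ratio changed by a factor of 0.960, with a counting interval of 0.765 to 1.21 that includes 1.

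The other core subunits of PRC2 were lower too. Suz12 (Entrez 52615), the scaffold of the complex, was at 74.7 TPM (siChd4) and 95.7 TPM (siSCR), from 2689 and 3254 counts. This was the lowest ratio of the 10, a fold of 0.781 (0.742 to 0.822), and 14.8% of genes tested had a lower one. Eed (Entrez 13626), which binds the methyl mark and stimulates the enzyme, was at 50.3 TPM (siChd4) and 57.8 TPM (siSCR), a fold of 0.871 (0.792 to 0.957). Rbbp4 and Rbbp7, histone-binding subunits that PRC2 shares with NuRD, were at 222 against 241 TPM and 307 against 337 TPM, folds of 0.923 (0.895 to 0.952) and 0.913 (0.880 to 0.947). All 6 core genes were therefore below 0 on the log2 scale, under each of the other scalings as well, with a median of -0.16 and 0 of 6 past 1.5-fold. Of all genes tested, 55.3% were below 0 and 11.2% passed 1.5-fold in either direction.

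Promoter sequences are shown for 5 of the genes whose counting interval lay off 1, so that a reader can see which short elements of cell cycle promoters they hold. They are from RefSeq (build GRCm38.p6, not the mm39 build of the table), which gave an entry for 9 of the 10 genes, with Cbx2 the exception. The stretch of Cbx7, which was higher in siChd4 with an interval off 1, is not printed. It held a CHR word and a CCAAT word, so the printed genes alone do not show how words and directions combine. Each entry covers 250 bases before and 50 after an annotated start site. It was searched on both strands for the words that the transcription factor E2F is known to bind (TTTCCCGC or TTTGGCGC or TTTCGCGC or TTTGCCGC). The word of the cell cycle homology region, CHR, known from promoters of mitotic genes, is TTTGAA. Also searched was CCAAT, which NF-Y binds and which is common in promoters of housekeeping and cell cycle genes alike. The last was the E-box word CACGTG, bound by factors of the Myc family. The 4 kinds do not overlap each other in the stretches shown. An E2F word was in 2.26% of all 32851 entries, the CHR word in 17.9%, CCAAT in 37.4% and the E-box word in 7.15%. Of the 10330 genes tested that have an entry, 4.75% had an E2F word, 14.0% the CHR word, 43.7% CCAAT and 11.7% the E-box word. Of the 9 genes, Ezh2 and Suz12 had an E2F word. In each line below capitals mark the words found, and the stretch ends at the base before the start site, except for Ezh2, where it runs from 5 bases before the start site to 15 bases after it.
Ezh2, chr6:47595016-47595035, minus strand: ttgctgcgTTTGGCGCtcgg
Suz12, chr11:79992856-79993105, plus strand: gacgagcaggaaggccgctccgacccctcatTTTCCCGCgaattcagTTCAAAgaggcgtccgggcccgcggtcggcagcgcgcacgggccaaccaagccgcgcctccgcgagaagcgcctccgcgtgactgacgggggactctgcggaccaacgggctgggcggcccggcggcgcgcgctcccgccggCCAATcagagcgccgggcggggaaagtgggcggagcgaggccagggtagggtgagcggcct
Eed, chr7:89980977-89981226, minus strand: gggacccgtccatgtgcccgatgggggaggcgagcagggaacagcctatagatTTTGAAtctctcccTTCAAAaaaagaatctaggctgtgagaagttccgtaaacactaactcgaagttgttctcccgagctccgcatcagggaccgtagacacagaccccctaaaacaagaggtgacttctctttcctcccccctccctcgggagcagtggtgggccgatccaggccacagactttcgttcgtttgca
Bmi1, chr2:18676768-18677017, plus strand: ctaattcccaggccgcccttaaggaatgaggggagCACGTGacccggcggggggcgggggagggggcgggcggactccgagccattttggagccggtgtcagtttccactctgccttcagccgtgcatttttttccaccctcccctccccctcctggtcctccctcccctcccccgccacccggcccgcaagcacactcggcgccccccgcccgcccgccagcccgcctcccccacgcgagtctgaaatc
Ring1, chr17:34024681-34024930, minus strand: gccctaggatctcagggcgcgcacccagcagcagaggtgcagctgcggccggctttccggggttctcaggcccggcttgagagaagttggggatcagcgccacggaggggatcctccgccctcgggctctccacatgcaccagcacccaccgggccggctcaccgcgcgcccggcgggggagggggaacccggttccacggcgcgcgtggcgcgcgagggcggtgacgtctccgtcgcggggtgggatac

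The E2F word of Suz12 began at position -219 from the start site and was followed by a CHR word at -203 and a CCAAT word at -61. The word of Ezh2 began at position 4 after the start site, and the same entry held CCAAT words at -90, -64 and -11, which are not printed. Eed held CHR words at -197 and -183 and a CCAAT word at 26, which is not printed, and Bmi1 an E-box word at -215. Ring1, which was higher in siChd4, held none of the 4 kinds in its whole entry, nor did Rnf2 and Ezh1. Cbx7, also higher, held a CHR word at -54 and a CCAAT word at -190. Jarid2, whose counting interval included 1, held CCAAT words at -179 and 17, in separate entries. Pcgf2, a Polycomb gene outside the group, held an E-box word at -137. Its TPM fold of siChd4 over siSCR was 2.57. CHR, CCAAT and E-box words thus stood beside ratios of both directions, with Pcgf2 a gene picked after its value was seen. Whether any of the 4 kinds, E2F included, goes with the direction of the ratio was not tested. Over the tested genes with an entry the median log2 ratio was -0.04. It was -0.12 over the 491 with an E2F word and -0.09 over the 1450 with a CHR word. Over the 1213 with an E-box word it was -0.07, and over the 4516 with CCAAT -0.04. A match is a run of letters, and binding of a factor was not measured.

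Accessory subunits steer PRC2 to its sites, and here they did not share a direction. Jarid2 (Entrez 16468), which helps to recruit PRC2, was at 22.7 TPM (siChd4) and 21.9 TPM (siSCR), a fold of 1.04 (0.948 to 1.13). With the trend of the ratio with transcript length subtracted, the interval of Jarid2 was 1.03 to 1.23, above 1. Of the 8 accessory genes in the table, 1 was at least 1.5-fold higher (Epop) and 1 lower (Lcor), where 6.75% of all genes tested were higher and 4.47% lower by that limit. Epop, an elongin-binding partner of PRC2, was at 9.06 TPM (siChd4) and 4.43 TPM (siSCR), a fold of 2.05 (1.56 to 2.70). Lcor, whose locus also encodes the PRC2 partner PALI1, was at 5.94 TPM (siChd4) and 10.3 TPM (siSCR), a fold of 0.576 (0.519 to 0.640). Its estimated counts were 598 and 892. Its transcript length, taken from counts over FPKM, was 1.11 times as long in siChd4 as in siSCR, relative to the median gene. Over the 10 subunits that value ran from 0.968 to 1.003. The counting interval does not cover such a shift. On FPKM plus 1 or with the length trend subtracted, Lcor was not past 1.5-fold. In RefSeq the Lcor gene overlaps Morf4l1b, so reads of the 2 may have been shared. The list's median log2 ratio was 0.06.

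The catalytic RING subunits of PRC1 differed from each other. Rnf2 (Entrez 19821), the main H2A ubiquitin ligase of the complex, was nearly level, at 60.8 TPM (siChd4) and 61.6 TPM (siSCR), with a fold of 0.987 (0.920 to 1.06). Its log2 ratio of -0.02 turned above 0 under median-of-ratios scaling, TMM scaling, FPKM and the length correction. Ring1 (Entrez 19763), the paralog with a weaker ligase role, was at 23.4 TPM (siChd4) and 19.7 TPM (siSCR), from 387 and 309 counts. That is a fold of 1.19 (1.02 to 1.38), and 80.4% of genes tested had a lower ratio. Ring1 accounted for 27.8% of RING transcripts in siChd4 (25.7% to 30.1%) and 24.3% in siSCR (22.1% to 26.6%). The Rnf2 to Ring1 ratio was 2.59 in siChd4 and 3.12 in siSCR, a change by a factor of 0.831 (0.702 to 0.983).

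The PCGF subunits decide which form of PRC1 is built, and the largest single ratio among the Polycomb genes tested, that of Pcgf2, was in this family. Bmi1 (Entrez 12151, also called PCGF4), of canonical PRC1, was at 77.0 TPM (siChd4) and 91.7 TPM (siSCR), from 2274 and 2596 counts, a fold of 0.839 (0.793 to 0.888). Pcgf2 (MEL18), the paralog that can take the place of Bmi1 in canonical PRC1, was at 8.46 TPM (siChd4) and 3.29 TPM (siSCR), a fold of 2.57 (1.94 to 3.45) from 179 and 68.7 counts. Pcgf3 and Pcgf5, of variant PRC1, were lower, at 48.6 against 75.1 TPM (0.647, 0.611 to 0.686) and 9.69 against 16.1 TPM (0.603, 0.539 to 0.675). Pcgf3 was not past 1.5-fold under median-of-ratios scaling or TMM scaling. Neither Pcgf3 nor Pcgf5 was past it on FPKM plus 1 or with the length trend subtracted. Of the 8 PCGF and RING genes, 1 was therefore at least 1.5-fold higher and 2 lower (6.75% and 4.47% of all genes tested), with a median log2 ratio of -0.04 that turned to 0.002 under median-of-ratios scaling and 0.02 on FPKM.

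Within the PCGF family Bmi1 was the most abundant member in both libraries. It made up 43.1% of PCGF transcripts in siChd4 (41.6% to 44.5%) and 41.8% in siSCR (40.5% to 43.1%), while the family summed to 179 TPM in siChd4 and 219 TPM in siSCR. The share of Pcgf2 went from 1.499% in siSCR (1.19% to 1.89%) to 4.73% in siChd4 (4.10% to 5.46%). The Bmi1 to Pcgf2 ratio, a pair chosen after its values were seen, was 9.10 in siChd4 and 27.9 in siSCR, a change by a factor of 0.326 (0.242 to 0.436).

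Cbx2 and Cbx7, both of canonical PRC1, went in opposite directions. Cbx2 (Entrez 12416), which compacts chromatin, was at 14.2 TPM (siChd4) and 16.8 TPM (siSCR), from 454 and 515 counts. Its fold of 0.844 (0.742 to 0.959) was within counting error of 1 on FPKM, where the interval was 0.774 to 1.0006. Cbx7 (Entrez 52609), a chromodomain reader known from self-renewing stem cells, was at 7.63 TPM (siChd4) and 5.77 TPM (siSCR), from 190 and 141 counts. Its fold of 1.32 (1.06 to 1.66) was the highest of the 10, and 86.6% of genes tested had a lower ratio. Cbx7 overlaps Apobec3 in RefSeq, which had 347 counts in siChd4 and 321 in siSCR, and no source used here says whether counting used strand. The Cbx2 to Cbx7 ratio was 1.86 in siChd4 and 2.91 in siSCR, a change by a factor of 0.638 (0.492 to 0.827), the largest of the 3 pairs among the 10 genes.

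Cbx6 was more abundant than either. Of the summed TPM of 4 CBX genes of canonical PRC1 (Cbx2, Cbx6, Cbx7 and Cbx8), Cbx6 made up 65.8% in siChd4 (64.1% to 67.5%) and 61.4% in siSCR (59.5% to 63.3%), and it was at 75.6 against 62.2 TPM, a fold of 1.22 (1.16 to 1.28). Cbx2 made up 12.3% of the same sum in siChd4 (11.3% to 13.4%) and 16.6% in siSCR (15.3% to 17.9%). The share of Cbx7 was 6.64% in siChd4 (5.79% to 7.61%) and 5.70% in siSCR (4.85% to 6.68%), with intervals that overlap. Cbx8 had a fold of 1.06 (0.881 to 1.28). Of 9 canonical PRC1 genes compared, Scml2 was the 1 past 1.5-fold, at 5.15 TPM (siChd4) and 8.23 TPM (siSCR). It was at the limit itself, and inside it under median-of-ratios scaling, FPKM plus 1 and the length correction. Over all genes tested, 11.2% passed 1.5-fold in either direction. The median of the 9 was -0.09, and 0.04 with the length trend subtracted.

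**Figure D3:**
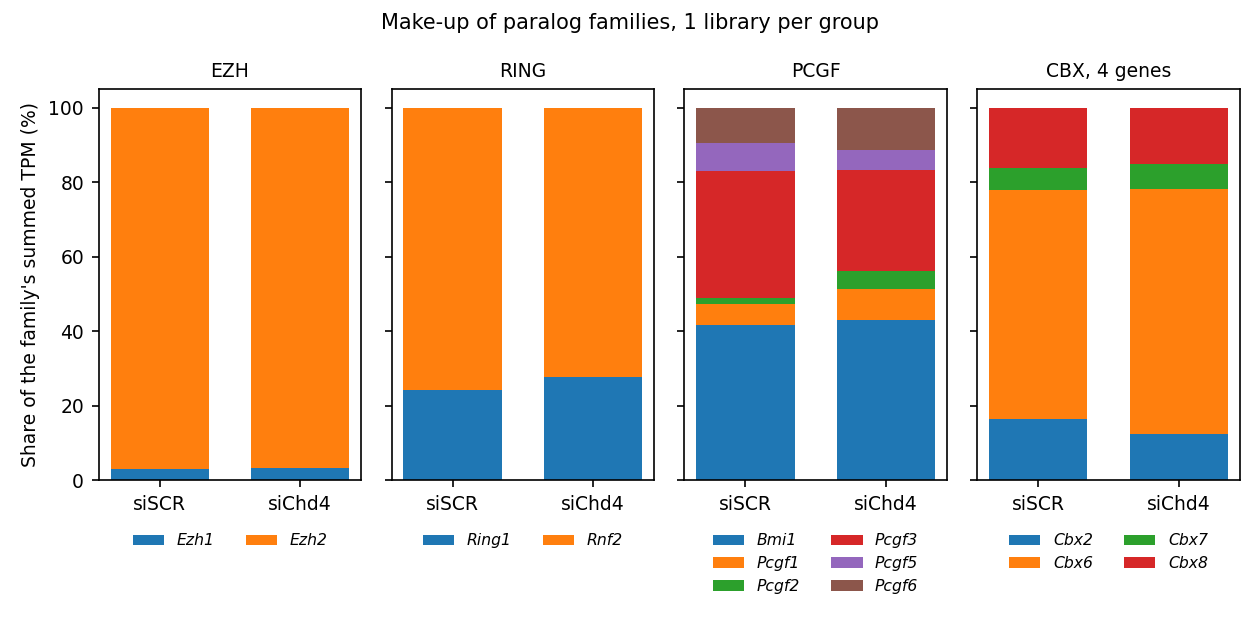
Share of each paralog family's summed TPM (%, stacked bars that add up to the genes shown) in the siSCR and siChd4 libraries, 1 library each. Ezh2 holds nearly all EZH transcripts in both libraries, Pcgf2 is 1.499% (siSCR) and 4.73% (siChd4) of the PCGF family, and Cbx6 is 61.4% (siSCR) and 65.8% (siChd4) of the 4 CBX genes.

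Most partner genes outside these families stayed within 1.5-fold. Some had a lower fold than Suz12, such as E2f6 (0.711, 0.657 to 0.769) and Asxl1 (0.750, 0.711 to 0.792). The counting interval lay below 1 for 6 of 13 variant PRC1 genes and above 1 for 1. For PR-DUB genes it lay below 1 for 6 of 10 and above 1 for 1. Of 13 variant PRC1 genes, 0 passed 1.5-fold and the median log2 ratio was -0.11. The most abundant were Dcaf7, a WD repeat scaffold (98.2 TPM (siChd4) and 117 TPM (siSCR)), and Usp7, a deubiquitinase (87.7 and 102 TPM). Of 10 genes of PR-DUB, the complex that removes ubiquitin from H2A and so opposes PRC1, Asxl2 was the 1 past 1.5-fold. It was at 16.8 TPM (siChd4) and 26.0 TPM (siSCR) (0.644, 0.6001 to 0.691), inside the limit under every scaling other than TPM with a pseudocount of 0.1. The median of PR-DUB genes was -0.17. The 5 genes of the list of H3K27 demethylases and DNA-binding partners had a median of -0.08, which was 0.08 with the length trend subtracted. In that list Yy1, a DNA-binding factor, was at 55.6 and 62.4 TPM, and the demethylase Kdm6b at 20.6 TPM in both libraries. Leaving the 10 subunits aside, 49 Polycomb genes of these lists were tested, of which 2 were at least 1.5-fold higher and 5 lower, with a median of -0.11. Over all genes tested the shares were 6.75% higher and 4.47% lower. The counting interval lay below 1 for 24 of the 49 and above 1 for 6, where it did for 34.1% and 25.1% of all genes tested. Pcgf2 and Epop were past the 1.5-fold limit under each scaling tried. On FPKM plus 1 or after removal of the length trend, 0 of the Polycomb genes were lower by that limit. Of all genes tested, 2.29% and 3.25% were. The added 1 weighs more on FPKM, the smaller unit here, so log2 ratios of low genes are drawn further toward 0.

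**Figure D4:**
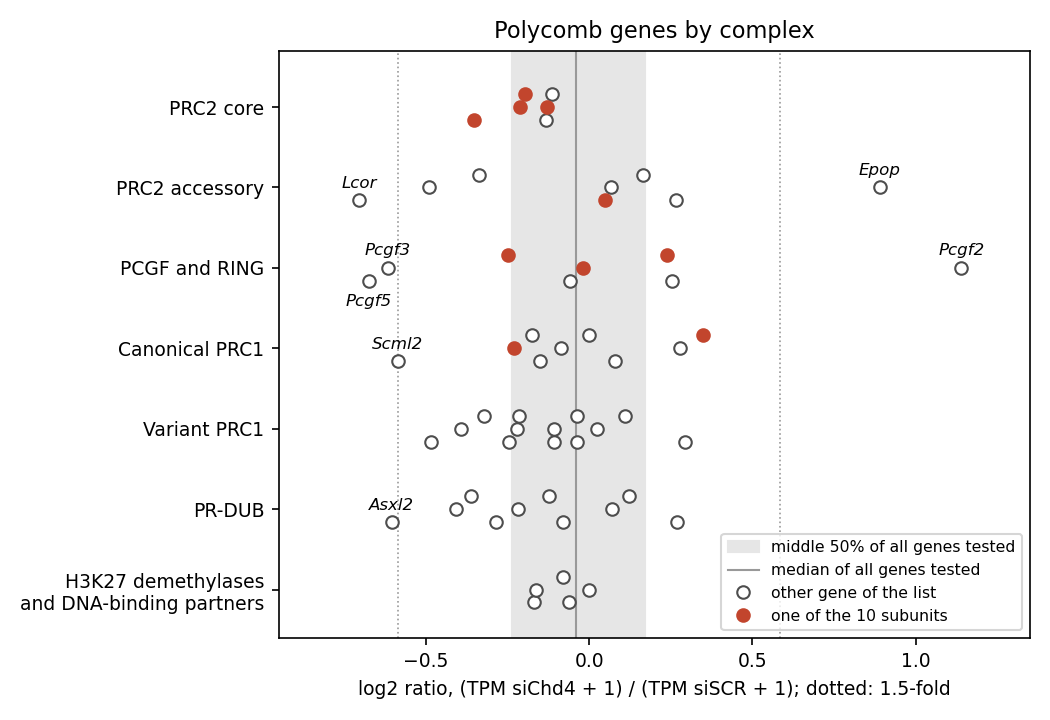
The log2 ratio of siChd4 over siSCR (TPM plus 1) for the tested Polycomb genes of these lists, by complex, with the 10 subunits in red and the other genes as open circles. The grey band is the middle 50% of all genes tested, and the 7 labelled genes lie past the dotted 1.5-fold lines while none of the red points does.

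Most genes of a list of known targets of Polycomb silencing were at low levels in both libraries, but Cdkn2a and Cdkn2b were not. Of 28 developmental regulators and CDK inhibitors of that list in the table, 25 were below a mean of 1 TPM, with no value above 0.73 TPM, and 14 of these had 3 counts or fewer in each library after rounding to whole counts. The 9 Hox genes in the table had at most 1.74 estimated counts in a library, under the floor of 3 counts. The tested genes were the CDK inhibitors Cdkn2b and Cdkn2a and the homeobox gene En2, and 0 of the 3 passed 1.5-fold. Of all genes tested, 11.2% did. Cdkn2b (p15) was at 48.1 TPM (siChd4) and 34.9 TPM (siSCR), from 538 and 370 counts, a fold of 1.38 (1.204 to 1.58). Cdkn2a, which encodes p16 and ARF, was at 25.7 TPM (siChd4) and 23.8 TPM (siSCR), a fold of 1.08 (0.871 to 1.34). Histone marks were not measured in these libraries.

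Markers of dividing cells and of other cell types also differed between the libraries. For comparison, 55.3% of all genes tested were below 0 on the log2 scale and 44.5% above. At least 1.5-fold higher were 6.75% of them, and 4.47% were lower by that limit. All 10 genes of the dividing cell list were below 0 (9 of 10 under the other scalings and the length correction, where Mcm5 was above it), with a median log2 ratio of -0.33 and a summed level of 2725 TPM (siChd4) and 3391 TPM (siSCR). Among them Mki67 was at 221 against 331 TPM. All 10 neuronal markers were above 0, with a sum of 710 against 528 TPM, and 5 of them were at least 1.5-fold higher. Most of that sum was Map2, at 516 against 427 TPM, a fold of 1.21. The 6 tested genes of the oligodendrocyte lineage list were above 0 too, with a sum over the 8 listed of 80.5 against 44.0 TPM. Astrocyte markers were split, with 3 of 5 below 0 and a median of -0.19. Aldh1l1 was higher at 421 against 309 TPM and made up most of their sum of 496 against 451 TPM, while Gja1 was at 40.8 against 105 TPM, past 1.5-fold lower. Fibroblast and vascular markers summed to 19.4 against 10.7 TPM and microglial markers to 36.6 against 7.0 TPM. Nearly all of the microglial sum was P2ry12, the 1 gene of that list that reached a mean of 1 TPM. Aif1 had 2.3 estimated counts (siChd4) and 0 (siSCR), under the floor of 3 counts. Csf1r had 6 and 4 counts, and Cx3cr1 was at 0.03 TPM in both libraries. In bulk RNA, fewer cells of a type and less RNA per cell cannot be told apart. The part of these differences in the values of Ezh2, Suz12, Eed, Bmi1, Ring1 and Cbx7 was not tested.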

How the data were processed

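RNA-seq was done on 1 siSCR and 1 siChd4 library, grouped by their titles. The authors deposited 1 table with TPM, FPKM and estimated counts per gene, per the file headers. Per the submitters' processing notes, reads were set against mm39. The aligner, counter, strand setting and treatment of duplicates are not given in the sources that were used.

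Genes whose mean TPM reached 1 were compared as log2 of (siChd4 + 1) over (siSCR + 1). Exact Clopper-Pearson 95% intervals used the deposited estimated counts, rounded. On simulated whole counts with Poisson error and equal depth, they held the true fold for 95.2% of 12682 unchanged genes. That checks the formula only, as the simulation had no fractional counts, TPM scaling, shared reads or duplicates. Intervals of ratios between 2 genes were exact conditional ones (scipy 1.17.1), and those of family shares used Poisson error on the logit scale. A floor of 3 counts was 0.149 CPM (siChd4) and 0.151 CPM (siSCR). TMM factors were from edgeR 4.0.16, and the length trend was a lowess fit (span 0.3, statsmodels 0.14.6) on counts over FPKM.

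The 10 genes and the gene lists were chosen with earlier results of these data known. Named besides the 10 were Chd4 and, per Polycomb list, up to 4 genes per direction past 1.5-fold, or otherwise the 2 most abundant. One gene of the lists was left out and is not reported here. Other genes, markers included, and the promoter search, were chosen after the values were seen. Other settings were a pseudocount of 0.1, median-of-ratios, TMM and FPKM scaling, the length trend, other filters and other fold limits. Under each other scaling 1 was added to the scaled values before log2 ratios were taken. FPKM was the smaller unit, with Ezh2 at 57.3 FPKM and 138 TPM in siChd4.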

Additional observations from a re-analysis of the deposited data

How the results depend on the processing

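The 10 genes gave 50 log2 ratios under a pseudocount of 0.1, median-of-ratios scaling, TMM-scaled CPM, FPKM and the length trend. All 50 stayed within their counting error of the value reported. Every setting reused the same counts, so this was likely beforehand and does not measure the spread between cultures. The sign changed in 4 of the 50, each time for Rnf2. The number past 1.5-fold was 0 under these settings, with no filter, when the mean TPM had to reach 5 (9 genes left, without Ezh1) and at a 2-fold limit. At a 1.2-fold limit it was 2. The number outside counting error was 7, and 6 on FPKM (without Cbx2) and 8 with the length trend subtracted (with Jarid2). The median log2 ratio lay between -0.10 on FPKM and -0.20 when the mean TPM had to reach 5. The Ezh2 to Ezh1, Rnf2 to Ring1, Cbx2 to Cbx7 and Bmi1 to Pcgf2 ratios stayed within their intervals with counts in place of TPM and with the length trend subtracted. The Bmi1 to Pcgf2 ratio was added after the data were seen. Depth limits Ezh1 and Cbx7 most, whose intervals were the widest of the 10. Leaving out a library was not possible with 1 per group. No paired analysis was possible because there was a single library of each treatment.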

Other observations

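The chromodomain family also holds the HP1 genes Cbx1, Cbx3 and Cbx5, which read methylation of histone H3 on lysine 9 and are not part of canonical PRC1. They were chosen after their values were seen. Cbx5 (HP1 alpha) was at 167 TPM (siChd4) and 264.95 TPM (siSCR), which is 0.630-fold (0.615 to 0.644 by counting error), and its difference was larger than that of Cbx2, Cbx6, Cbx7 or Cbx8. It was past 1.5-fold except with the length trend subtracted. Cbx3 (HP1 gamma) was at 603 and 719 TPM (0.839, 0.815 to 0.864) and Cbx1 (HP1 beta) at 103 and 115 TPM (0.893, 0.834 to 0.957). All 3 were below 0 on the log2 scale under each scaling tried, and their summed level was 873 TPM (siChd4) and 1099 TPM (siSCR).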
